A study of Mus musculus with 10 samples.

Results

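The genes described here are 9 genes of myelin and of the mature oligodendrocyte, Mbp, Mog, Mag, Mobp, Cnp, Cldn11, Ermn, Mal and Opalin, out of 19938 genes that had a probe set of their own. They were taken by name, each through a probe set that the platform annotation assigns to that gene alone, and each of the 9 had exactly 1 such probe set. Their RNA was read in whole brain of 5 transgenic mice (Tg) that overexpress Glo1 from a bacterial artificial chromosome and of 5 wild-type littermates (WT). All 10 mice were untreated, group-housed adult males on a C57Bl/6J background, and each array is titled as a biological replicate of its group. The cells in which the transgene is active and the number of founder lines are not stated in the labels. Glo1 encodes glyoxalase 1, the enzyme that clears methylglyoxal with glutathione.

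Myelin is the stack of oligodendrocyte membrane wrapped around axons, which speeds conduction and supports the axon. Its compact part is held together by basic proteins at the cytoplasmic face, and its other compartments carry adhesion molecules toward the axon, tight junctions between the wraps and enzymes and cytoskeletal proteins in the cytoplasmic channels. White matter tracts and brain stem hold much of it. In RNA of a whole brain fewer oligodendrocytes and less RNA per oligodendrocyte cannot be told apart.

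None of the 9 genes differed detectably between Tg and WT brain. By limma, a linear model with a shared variance estimate over all 28944 probe sets, 0 of 9 passed an adjusted p of 0.05, against 10 probe sets in all (0.0345% of those tested); the lowest adjusted p of the 9 was 0.9998. At an unadjusted p under 0.05 the count was also 0 of 9, where 2.21% of all probe sets passed, and by the exact permutation test 0 of 9 reached 0.05, the smallest p this test allows being 0.007937. The values of Tg and WT overlapped for all 9 genes, while 0.46% of all probe sets had groups that did not overlap. The median difference, Tg minus WT, was -0.015 log2 units over the 9 genes and -0.0034 over all genes. Glo1 itself differed by 1.5 log2 units between the same arrays (95% interval 1.33 to 1.68, limma adjusted p = 1.53e-05).

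Array facts that bear on these genes were few. The median of all tested probe sets lay between 7.95 and 8.05 log2 units on the 10 arrays. WT replicate 2 stood apart, with a mean correlation of 0.992 with the other arrays, against 0.994 to 0.997 for those. Of 11 measured cerebellar markers 10 were lowest on it. The mean of the 11 was 10.42 to 10.52 log2 units in Tg brain, 8.15 on WT replicate 2 and 10.60 to 10.70 on the other WT arrays. The lowest value in the table is 3.28, so no marker is at 0. The differences of the 9 genes and the medians of the gene lists are therefore given with and without WT replicate 2. The marker lists of neurons, astrocytes and microglia had mean levels per array of 11.97 to 12.02, 11.06 to 11.09 and 8.73 to 8.83 in Tg brain. In WT brain they were 12 to 12.04, 11.01 to 11.09 and 8.71 to 8.93. No threshold of detection was applied to single markers.

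The probe sets are 10457022 for Mbp (chromosome 18), 10450845 for Mog (17), 10562152 for Mag (7), 10590269 for Mobp (9), 10381154 for Cnp (11), 10491313 for Cldn11 (3), 10482795 for Ermn (2), 10487441 for Mal (2) and 10467529 for Opalin (19). Most of the 9 genes were bright. Mbp averaged 12.50 log2 units over the 10 arrays, with 1.43% of all probe sets brighter, and Cnp 12.12, with 2.30% brighter. Mag, Mobp, Cldn11 and Mal averaged 11.27 to 11.59, Mog 10.88 and Ermn 10.46. Opalin was the dimmest at 9.31, with 28.1% of probe sets brighter. Probes differ in how well they bind, so these levels place a probe set on the scale of the array and do not rank the transcripts.

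**Figure D1:**
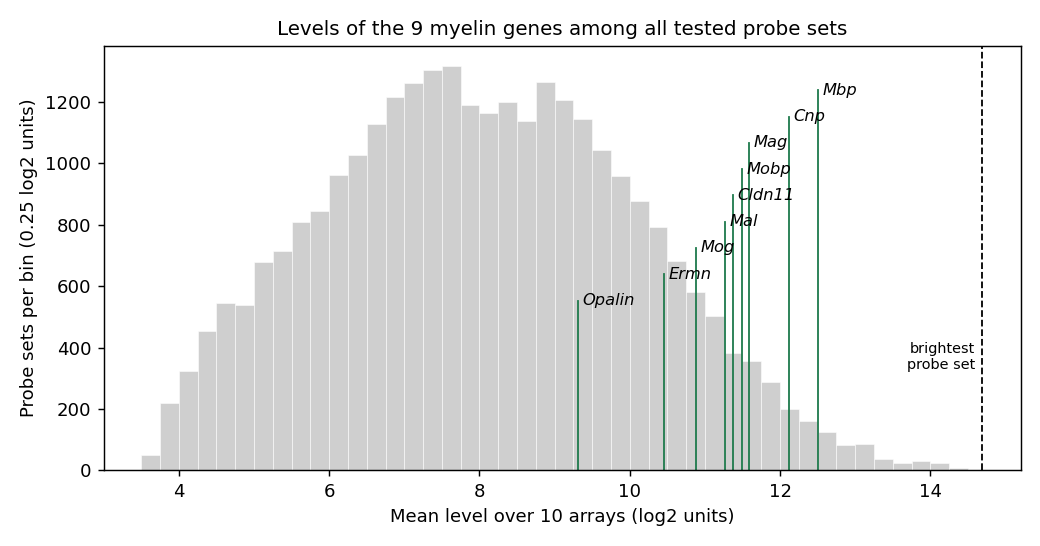
The grey bars count the 28944 tested probe sets by mean level over 10 arrays (log2 units), the green lines mark the 9 myelin genes, and the dashed line marks the brightest probe set at 14.69. Mbp and Cnp stand 2.19 and 2.57 log2 units below that end, and Opalin, at 9.31, lies within the main body of the distribution.

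The brightest probe set of the table averaged 14.69 log2 units, so Mbp lay 2.19 and Cnp 2.57 below the top of the scale. No deposited value marks saturation, and how far bright probes were compressed was not measured. The spread between arrays was narrow at this end of the scale. Over the 10 arrays Mbp had an SD of 0.024 log2 units, Cnp 0.049, Mag 0.060, Mobp 0.070, Cldn11 0.097, Mal 0.064 and Mog 0.048. The median SD was 0.10 over all probe sets and 0.051 over the brightest 1%, whose means start at 12.75, above all 9 genes. For 7 of the 9 genes the SD was below the median of all probe sets; Ermn (0.20) and Opalin (0.31) were above it.

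The stretch before the transcription start is shown for the 5 genes in which a core of either of 2 factors of oligodendrocyte maturation was found. Each line gives the 250 bases before an annotated start, 5′ to 3′ on the gene's strand, from RefSeq on GRCm38.p6. Capitals mark ACAAAG, a core recognised by SOX proteins such as Sox10, and CTGGCAC or CTGGTAC, a core of the myelin regulatory factor Myrf, on either strand.
Cnp, chr11:100574689-100574938, plus strand: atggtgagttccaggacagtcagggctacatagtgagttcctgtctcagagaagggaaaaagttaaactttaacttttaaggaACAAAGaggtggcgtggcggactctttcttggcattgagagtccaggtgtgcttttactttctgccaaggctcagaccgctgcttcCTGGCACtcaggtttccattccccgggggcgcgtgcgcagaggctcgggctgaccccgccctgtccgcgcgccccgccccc
Mag, chr7:30914923-30915172, minus strand: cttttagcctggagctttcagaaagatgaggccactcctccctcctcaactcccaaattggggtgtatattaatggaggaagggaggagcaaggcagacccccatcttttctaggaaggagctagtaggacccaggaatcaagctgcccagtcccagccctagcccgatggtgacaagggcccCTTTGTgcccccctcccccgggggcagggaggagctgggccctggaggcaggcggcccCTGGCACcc
Mog, chr17:37023399-37023648, minus strand: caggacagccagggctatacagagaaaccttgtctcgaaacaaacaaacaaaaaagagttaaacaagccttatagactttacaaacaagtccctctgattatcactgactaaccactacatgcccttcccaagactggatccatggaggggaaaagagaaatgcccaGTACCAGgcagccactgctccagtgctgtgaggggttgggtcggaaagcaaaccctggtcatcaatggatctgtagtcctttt
Mobp, chr9:120149492-120149741, plus strand: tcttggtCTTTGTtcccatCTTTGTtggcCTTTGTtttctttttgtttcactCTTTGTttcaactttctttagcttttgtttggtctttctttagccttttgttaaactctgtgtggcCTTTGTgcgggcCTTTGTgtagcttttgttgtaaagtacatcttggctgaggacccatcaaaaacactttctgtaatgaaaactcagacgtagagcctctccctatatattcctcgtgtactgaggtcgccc
Opalin, chr19:41077114-41077363, minus strand: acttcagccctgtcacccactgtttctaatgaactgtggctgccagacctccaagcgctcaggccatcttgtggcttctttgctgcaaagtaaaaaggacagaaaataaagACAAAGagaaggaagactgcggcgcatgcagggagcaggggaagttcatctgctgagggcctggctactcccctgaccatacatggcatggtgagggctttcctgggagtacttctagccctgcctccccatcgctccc
Windows were found for 8 of the 9 genes (all but Mbp), 10 windows in all, since Mag has 3. The SOX core stood in 4 of the 8 genes (Cnp, Mag, Mobp and Opalin), and in 16.5% of all 32851 windows of this length. Mobp held it 6 times. The Myrf core stood in 3 of the 8 (Cnp, Mag and Mog), and in 5.93% of all windows. Counted by window, as the shares are, the SOX core stood in 5 of the 10 and the Myrf core in 4 of the 10. The Mag windows chr7:30914864-30915113 and chr7:30914923-30915172 overlap and share their cores, so they do not count independently. Mag is counted for a core found in any of its windows, the cores of the 2 motifs did not overlap in the windows shown, and Cldn11, Ermn and Mal held neither. A match is a stretch of letters and not a measured binding site.

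Mbp encodes the basic protein that zips the cytoplasmic faces of compact myelin. It read 12.49, 12.49, 12.53, 12.46 and 12.49 log2 units in Tg brain, against 12.49, 12.47, 12.52, 12.51 and 12.53 in WT brain (replicates 1 to 5 in each list of this kind). The groups overlapped within a span of 0.07 log2 units. The difference was -0.02 (95% interval -0.09 to 0.06, limma unadjusted p = 0.668), which bounds the Tg level to between 0.94 and 1.04 times that of WT on this scale. Mobp, a second small basic protein of compact myelin, read 11.43, 11.50, 11.52, 11.49 and 11.51 in Tg brain, against 11.38, 11.56, 11.51, 11.46 and 11.63 in WT brain. The 5 Tg values lay inside the WT range, and the difference was -0.02 (-0.13 to 0.09). Its sign turned without WT replicate 5, at 0.010. Without WT replicate 2 Mbp differed by -0.02 and Mobp by -0.01.

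Among the membrane proteins, Mog, an immunoglobulin-domain protein on the outermost myelin surface, read 10.95, 10.92, 10.88, 10.89 and 10.81 in Tg brain, against 10.88, 10.84, 10.93, 10.81 and 10.90 in WT brain. Tg replicate 1 was the highest array, and Tg replicate 5 and WT replicate 4 were level at the low end. Mog lies on chromosome 17, as does Glo1, and differed by 0.01 (-0.08 to 0.11), with a sign that turned without Tg replicate 1 (-0.0017) or WT replicate 4 (-0.0019). Without WT replicate 2 the Mog difference was again 0.01. Mag, a sialic acid binding adhesion molecule that faces the axon, read 11.64, 11.63, 11.54, 11.55 and 11.50 in Tg brain, against 11.61, 11.69, 11.64, 11.58 and 11.54 in WT brain. WT replicate 2 was the highest array and Tg replicate 5 the lowest, and the groups overlapped over most of their range. Mag averaged 11.57 ± 0.061 in Tg and 11.61 ± 0.057 in WT (SD, n = 5 each), a difference of -0.04 (-0.14 to 0.06), and of -0.02 without WT replicate 2.

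Cldn11, the claudin that forms the tight junctions of myelin, read 11.36, 11.40, 11.35, 11.34 and 11.38 in Tg brain, against 11.34, 11.61, 11.33, 11.23 and 11.37 in WT brain. WT replicate 2, at 11.61, was above all other arrays, and the Tg values spanned less than the WT values. The difference was -0.01 (-0.15 to 0.13) with that array and 0.05 without it (-0.04 to 0.14, limma adjusted p = 0.616). With all 10 arrays the sign also turned after quantile normalization (0.0022) and with array weights (0.032). Mal, a proteolipid involved in membrane sorting, read 11.27, 11.16, 11.24, 11.26 and 11.40 in Tg brain, against 11.26, 11.28, 11.32, 11.21 and 11.26 in WT brain. The lowest and the highest array were both Tg, and the means differed by 0.00 log2 units (-0.10 to 0.11), or by 0.01 without WT replicate 2. Leaving out Tg replicate 5, WT replicate 4 or WT replicate 5 turned the sign, to no lower than -0.032.

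Cnp, the phosphodiesterase of the cytoplasmic channels, read 12.14, 12.11, 12.13, 12.09 and 12.03 in Tg brain, against 12.16, 12.13, 12.23, 12.10 and 12.13 in WT brain. It had the lowest p of the 9 genes, with a difference of -0.05 (-0.14 to 0.04; limma unadjusted p = 0.255; exact permutation p = 0.119). Tg replicate 5 was the lowest array and WT replicate 3 the highest, and the other 8 arrays overlapped. Without WT replicate 2 the Cnp difference stayed at -0.05 (limma adjusted p = 0.601).

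**Figure D2:**
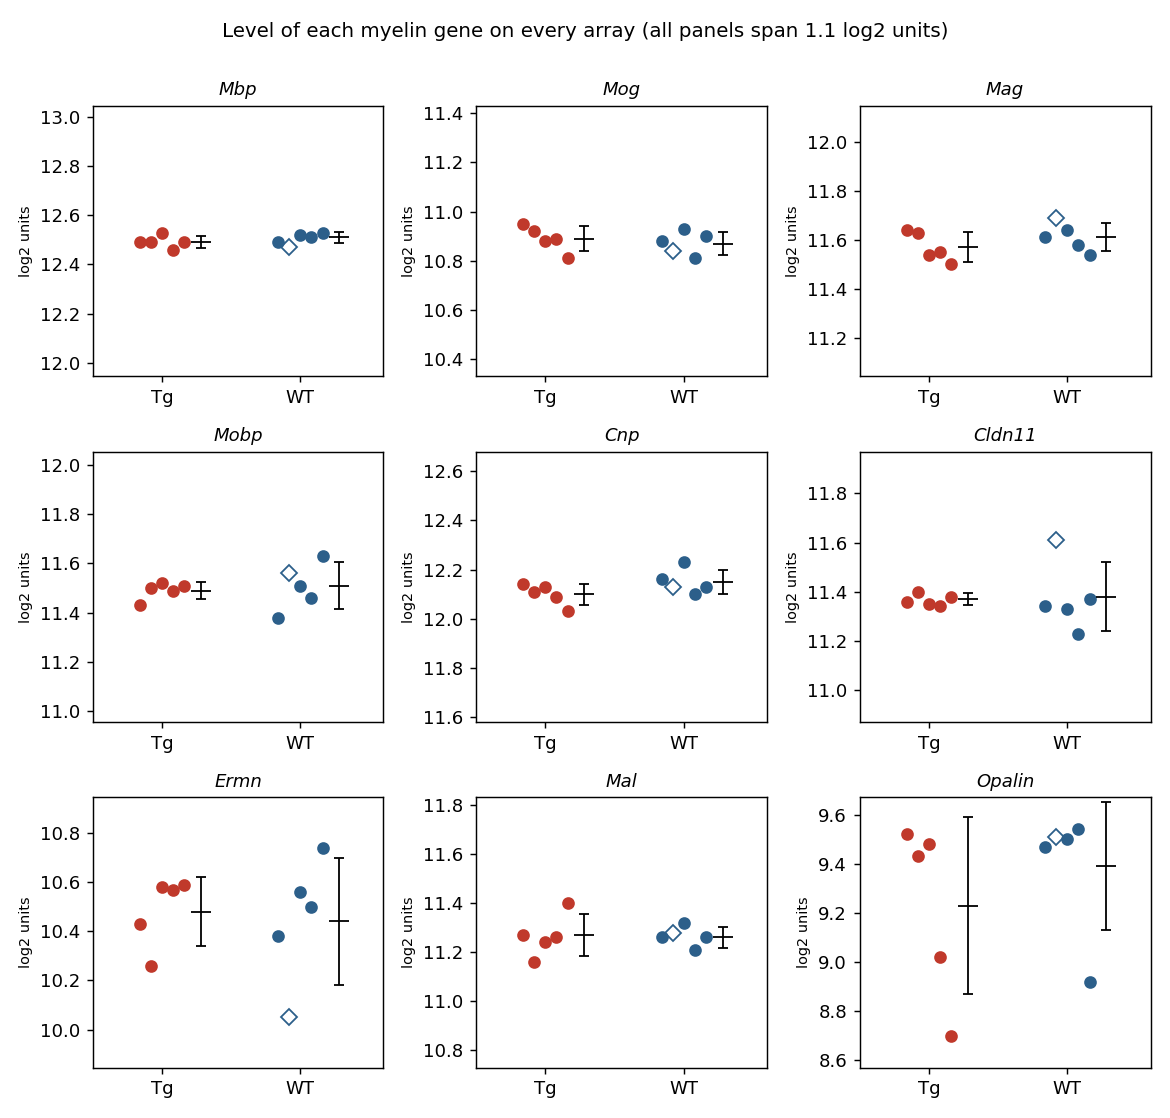
Each panel shows 1 gene on the 5 Tg arrays (red, left) and the 5 WT arrays (blue, right) in log2 units, with the group mean ± SD beside the points; the open diamond is WT replicate 2, and all panels span the same height. Mbp stays within 0.07 log2 units, Ermn is lowest on WT replicate 2 at 10.05, and Opalin drops to 8.70 to 9.02 on Tg replicates 4 and 5 and WT replicate 5.

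Ermn and Opalin varied most among the 9 genes. Ermn encodes ermin, an actin-binding protein of mature oligodendrocytes, and read 10.43, 10.26, 10.58, 10.57 and 10.59 in Tg brain, against 10.38, 10.05, 10.56, 10.50 and 10.74 in WT brain. The lowest and the highest array were both WT, 0.70 log2 units apart. The difference was 0.04 (-0.21 to 0.29) with all arrays and -0.06 (-0.25 to 0.13, limma adjusted p = 0.784) without WT replicate 2, which was the lowest array. The labels give each sample a number, from 1388 to 1399, whose meaning they do not state. On the 4 arrays with the lowest numbers, Tg replicates 1 and 2 and WT replicates 1 and 2, Ermn read 10.05 to 10.43, and on the other 6 arrays 10.50 to 10.74, with both genotypes on either side. This split was seen in the values, and the share of all probe sets that part the same arrays was not counted.

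Opalin encodes a glycosylated membrane protein restricted to oligodendrocytes. It read 9.52, 9.43, 9.48, 9.02 and 8.70 in Tg brain, against 9.47, 9.51, 9.50, 9.54 and 8.92 in WT brain. Tg replicates 4 and 5 and WT replicate 5 were low, at 8.70 to 9.02, and the other 7 arrays lay between 9.43 and 9.54. These 3 arrays carry the label numbers 1397, 1399 and 1398, the highest of the series, and they hold both genotypes. How many of all probe sets set these 3 arrays apart was not counted. The difference of -0.16 (SE 0.17, 95% interval -0.53 to 0.21) was the widest of the 9 in size and in error. It was -0.13 without WT replicate 2 and -0.03 (-0.14 to 0.08) without the 3 low arrays, an alternative chosen after their values were seen; single arrays left out gave -0.28 (without WT replicate 5) to -0.027 (without Tg replicate 5). Without the 3 low arrays 0 of the 9 genes passed by limma, where 0.0207% of all probe sets did, and 0 of 9 had an unadjusted p under 0.05, where 1.55% did.

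**Figure D3:**
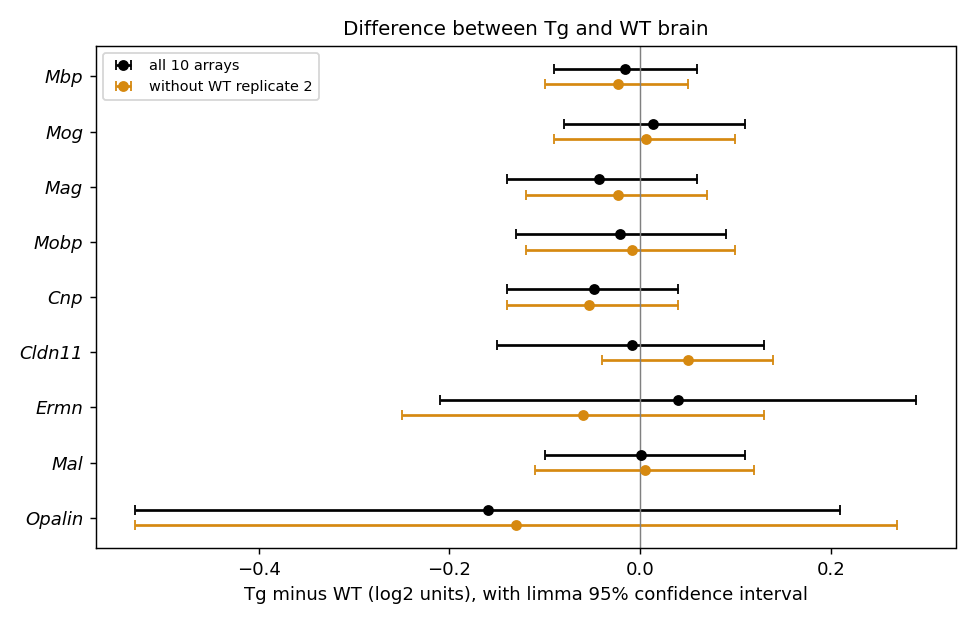
Points are the Tg minus WT differences of the 9 genes in log2 units with limma's 95% confidence intervals, in black for all 10 arrays and in orange without WT replicate 2. All intervals include 0, and the interval of Opalin, from -0.53 to 0.21, is the widest.

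The genes that followed Opalin most closely were looked up after its values were seen, among 12900 genes in the upper 60% of probe sets by brightness and ranked by correlation over the 10 arrays. The 5 that ran most strongly against it included Hspa5, Sdf2l1, Pdia6 and Pdia4, which are chaperones and folding enzymes of the endoplasmic reticulum, and Sgsm1. Hspa5 read 11.31, 11.30, 11.31, 11.94 and 12.20 log2 units in Tg brain, against 11.31, 11.36, 11.36, 11.35 and 12 in WT brain. It was thus high on exactly the 3 arrays where Opalin was low, at 11.94 to 12.20 against 11.30 to 11.36 on the other 7. Sdf2l1 read 9.46 to 9.94 on those 3 arrays and 8.73 to 8.92 on the others, and Pdia6 9.83 to 10.16 and 9.41 to 9.54.

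The 5 genes that ran most closely with Opalin were Cirbp, the cold-inducible RNA-binding protein, Rbm11, Haghl, Rab34 and Mfsd4a. Cirbp read 10.24, 10.24, 10.34, 9.85 and 9.62 in Tg brain, against 10.39, 10.30, 10.37, 10.41 and 9.93 in WT brain, and was low on the same 3 arrays. Rbm11 read 7.84 to 7.96 there and 8.21 to 8.38 on the other 7. Since the arrays fall apart in this way, no correlation over all 10 is given. Over the 7 other arrays the r of Opalin with the 10 genes lay between -0.65 (Mfsd4a) and 0.75 (Pdia4), with 0 past adjustment over the 10, and that of Pdia4 was -0.73 without the 2 arrays farthest from its median. Opalin and Hspa5 had r = 0.63 and rho = 0.43 (exact permutation p = 0.139 and 0.354, n = 7), the first adjusted to 0.463, and r was 0.73 without the 2 arrays farthest from the median of Hspa5. None of the 10 genes passed in the comparison of Tg with WT, where Hspa5 differed by 0.13 and Cirbp by -0.22. The part of this pattern in the level of Opalin was not tested.

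**Figure D4:**
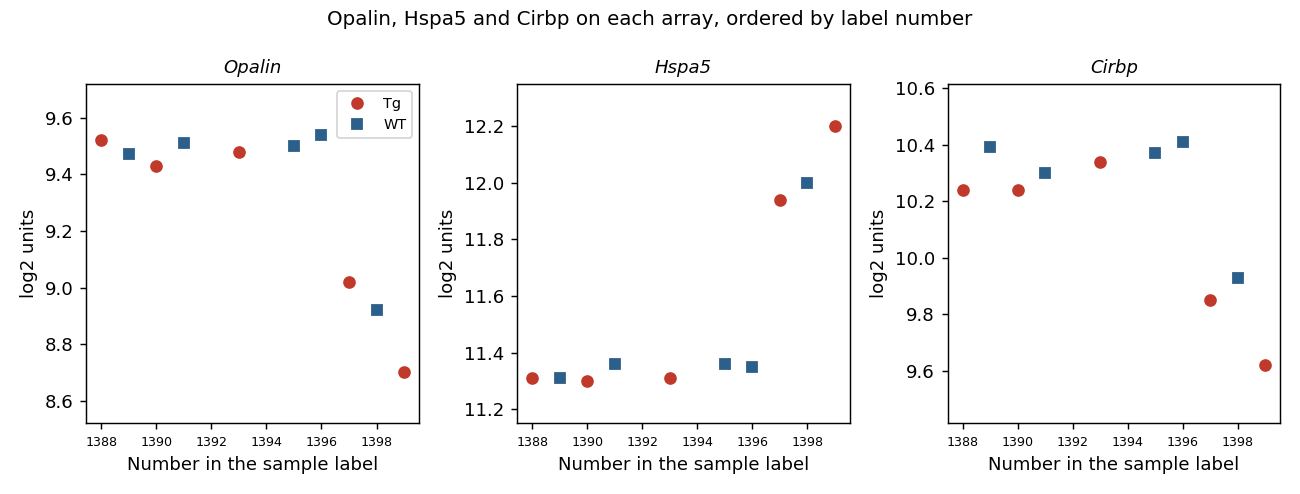
Levels of Opalin, Hspa5 and Cirbp in log2 units on the 5 Tg (red circles) and 5 WT (blue squares) arrays, placed by the number in the sample label. On the 3 highest numbers, 2 Tg and 1 WT, Opalin lies at 8.70 to 9.02 and Hspa5 at 11.94 to 12.20, apart from the other 7 arrays.

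The 9 genes were not seen to vary as a block across arrays. For 7 of them the SD was below the median of all probe sets, so there was little variation for a correlation to follow. A low r here cannot show that the genes are regulated apart. The mean of the 9 per array was 11.16 to 11.25 log2 units in Tg brain and 11.21 to 11.28 in WT brain, a span of 0.13. Without Opalin the mean of the other 8 was 11.43 to 11.47 in Tg brain and 11.42 to 11.51 in WT brain, a span of 0.09, and Tg replicate 5 (11.46) was level with Tg replicate 1. Among the 28 pairs that leave out Opalin, Pearson's r over 10 arrays ranged from -0.80 to 0.64 with a median of 0.02, and 14 pairs were positive and 14 negative. By permutation 3 of the 28 had an unadjusted p under 0.05 and 0 passed after Benjamini-Hochberg adjustment over the 36 pairs of the 9 genes. Within genotypes the median was 0.02, and without WT replicate 2 it was 0.02 as well.

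Mag and Ermn gave the strongest relation, and it was inverse. Their r was -0.80 and rho -0.81 (permutation p = 0.00425 and 0.00711, n = 10), with an adjusted p of 0.153 for r. The direction held without the 2 arrays farthest from the median of Mag (r = -0.69), within genotypes (-0.82), without WT replicate 2 (-0.67) and over the 7 arrays on which Opalin was level (-0.76). On the 4 arrays with the lowest label numbers, where Ermn was low, Mag read 11.61 to 11.69, and on the other 6 arrays 11.50 to 11.64. With each side of that split centred on its own mean r was -0.51, and over the 6 arrays alone it was -0.33 (rho = -0.77), so the size of the relation moved with the split, which was examined after the values were seen. Cnp, Mag and Mog had positive r with each other, none past the adjusted threshold. For Mog and Cnp r was 0.64 and rho 0.56 (permutation p = 0.0422 and 0.0959, adjusted 0.351 for r, n = 10), 0.85 within genotypes, and 0.37 without the 2 farthest arrays. For Mag and Cnp r was 0.60 and rho 0.67 (permutation p = 0.0586 and 0.0395, adjusted 0.352 for r, n = 10), 0.51 within genotypes and 0.56 without the 2 farthest arrays.

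All 3 of these genes and Opalin were at their lowest on Tg replicate 5, Mog there level with WT replicate 4. Mog and Mag had r = 0.38 and rho = 0.47 (permutation p = 0.282 and 0.179, adjusted 0.702 for r, n = 10), and 0.04 without the 2 farthest arrays, of which Tg replicate 5 was 1, so this relation rests on those arrays; without WT replicate 2 r was 0.69. Cldn11 and Ermn appeared opposed, with r = -0.68 and rho = -0.22 (permutation p = 0.0487 and 0.534, adjusted 0.351 for r, n = 10). Cldn11 was highest and Ermn lowest on WT replicate 2, and over the arrays without it their r was -0.12. Within the Tg arrays alone, which do not include that array, r was -0.71. Mobp and Ermn had r = 0.22 and rho = 0.37 (permutation p = 0.532 and 0.297, adjusted 0.871 for r, n = 10), 0.70 without WT replicate 2 and -0.41 without the 2 arrays farthest from the median of Mobp. Over the 7 arrays on which Opalin was level, its r with the 8 other genes lay between -0.35 and 0.45.

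**Figure D5:**
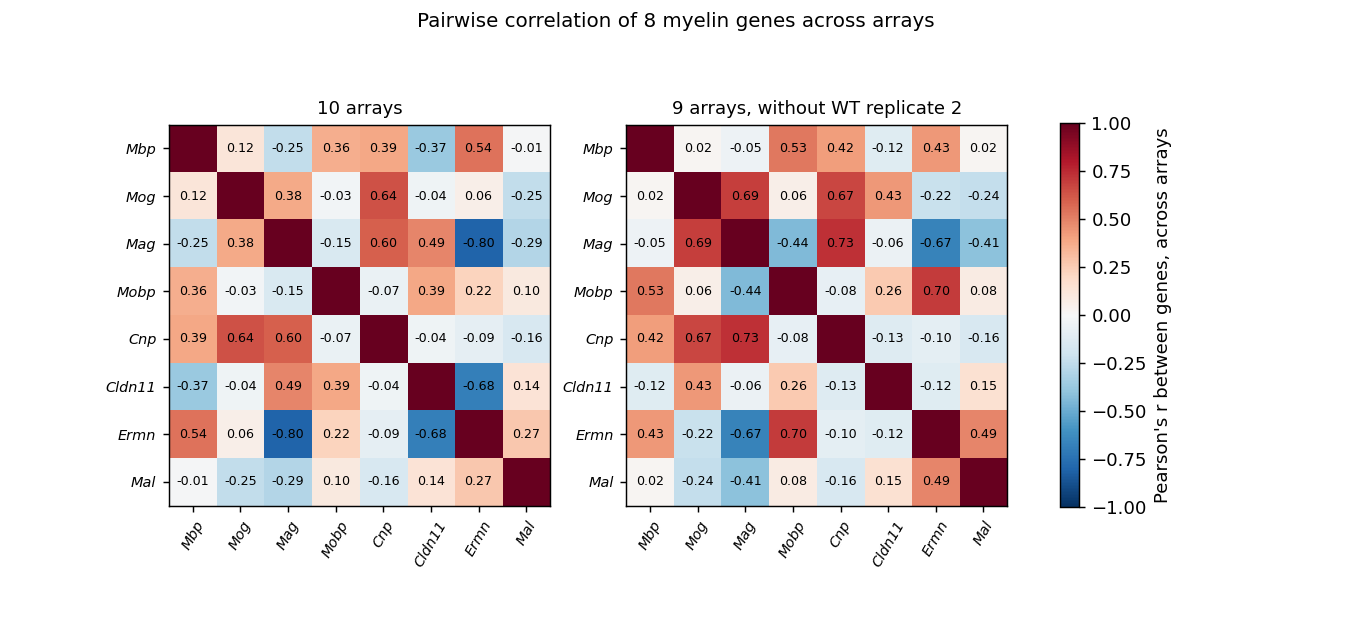
Pearson's r between 8 of the myelin genes across 10 arrays (left) and across 9 arrays without WT replicate 2 (right), red for positive and blue for negative; Opalin is left out because 3 arrays stand apart. Mag and Ermn are inverse in both panels (-0.80 and -0.67), while Cldn11 and Ermn stand at -0.68 in the left panel and -0.12 in the right.

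The genes whose values were most like the mean of the 9, among the same 12900, were Itgam, an integrin subunit of microglia (r = 0.95), Psmb1, a proteasome subunit (0.95), Acp2, a lysosomal phosphatase (0.93), Map1a (0.92), Tmsb10 (0.92), Tkt (0.91), Ninj2 (0.91) and Ten1 (0.91) over 10 arrays. The median r of all 12900 with that mean was 0.10. Without WT replicate 2 the list was Itgam, Psmb1, Acp2, Tmsb10, Itih5, Map1a, Snapc5 and BC004004, with r from 0.93 to 0.96 over 9 arrays, and 5 genes stood in both lists. The mean of the 9 carries the low Opalin values of 3 arrays: with the mean of the other 8 the same 8 genes of the first list had r between 0.13 (Tmsb10) and 0.57 (Ten1), and Itgam had 0.37. These values describe the arrays, since the best of many genes reaches a high r over so few samples.

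Other genes of the lineage were compared from lists of known members of each class. Of 81 measured genes in 4 lists, 0 passed by limma and 1 had an unadjusted p under 0.05, which is 1.23%, where 2.21% of all probe sets had. Their differences lay between -0.11 and 0.12, with 34 higher and 47 lower in Tg, where 52.8% of all genes were lower. Among 34 further myelin proteins the median difference was -0.0084, and -0.0037 without WT replicate 2. Klk6, a secreted protease of oligodendrocytes, had the lowest p, with 9.97 ± 0.063 in Tg and 9.85 ± 0.089 in WT (SD, n = 5 each), a difference of 0.12 (0.01 to 0.24; limma unadjusted p = 0.0383, adjusted p = 1.0; unadjusted p = 0.0554 without WT replicate 2). Cd81, a tetraspanin, averaged 12.95 in Tg and 12.94 in WT, and Apod, a lipid carrier, 12.72 in Tg and 12.65 in WT.

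The 15 measured genes of myelin lipid synthesis had a median difference of -0.013, with 11 lower, and of -0.0033 without WT replicate 2, with 10 lower. Of all genes 52.8% were lower, and 46.7% without WT replicate 2. Ugt8a, which makes the galactolipid of myelin, averaged 11.05 ± 0.12 in Tg and 10.95 ± 0.10 in WT (SD, n = 5 each), a difference of 0.10 (-0.05 to 0.24). The desaturases Scd2 and Fads1 differed by -0.01 and 0.01. The 13 transcription factors had a median difference of -0.0018, and of 0.018 without WT replicate 2. There 1 was lower at an unadjusted p under 0.05, where 3.95% of all probe sets were. With all arrays Zfp536 had the lowest p at -0.09 (-0.27 to 0.08), and the brightest, Zeb2 and Yy1, differed by -0.02 and 0.03. St18, singled out after its values were seen, read 8.29 on WT replicate 2 and 9.03 to 9.43 on the other 9 arrays. Among 19 genes of progenitors and newly formed oligodendrocytes the median was -0.0080, and -0.017 without WT replicate 2. There 1 was higher at an unadjusted p under 0.05, where 7.07% of all probe sets were. Sox4 differed by 0.09 (-0.06 to 0.25), Ptprz1, a receptor phosphatase, by 0.04 and Tnr, a matrix glycoprotein, by -0.05.

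At the axon, 10 of 11 measured genes of the node of Ranvier and paranode had lower means in Tg, with a median of -0.031, and without WT replicate 2 all 11 did (-0.07 to -0.02). Of all genes 52.8% were lower in Tg, and 46.7% without WT replicate 2. Without Tg replicates 4 and 5 and WT replicate 5 it was 8 of 11, with a median of -0.017, where 58.7% of all genes were lower. None of the 11 passed by limma in any of these, and 0 had an unadjusted p under 0.05. The mean of this list per array overlapped between the groups, at 11.10 to 11.18 log2 units in Tg brain and 11.13 to 11.19 in WT brain. Without WT replicate 2 the WT range was 11.14 to 11.19. Kcna1, a potassium channel beside the node, differed by -0.06 (-0.14 to 0.03), and the adhesion molecules Cntn1 and Nrcam by -0.01 and -0.02. Of 8 measured Schwann cell genes, which would mark peripheral nerve in the tissue, 0 passed by limma and 0 had an unadjusted p under 0.05; Ncmap differed by 0.14 (-0.02 to 0.30), Pmp22 by 0.03 and Drp2 by 0.00. The median of the 8 was 0.031, and 0.0082 without WT replicate 2. Without that array 1 was higher and 1 lower at an unadjusted p under 0.05, where 7.07% of all probe sets were higher and 3.95% lower. Ncmap then differed by 0.18 (limma unadjusted p = 0.0254, adjusted p = 0.414).

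Markers of other regions of the nervous system were set beside these genes. Hox genes, which mark hindbrain and spinal cord, had higher means in Tg for 13 of 14 members, where 52.8% of all genes were lower. The median of the 14 was 0.094, with 0 past the adjusted threshold. By limma 2 were higher at an unadjusted p under 0.05, where 0.985% of all probe sets were. Without WT replicate 2 it was 9, where 7.07% of all probe sets were. Their list mean was 6.74 to 6.90 log2 units in Tg brain and 6.60 to 6.87 in WT brain, or 6.60 to 6.74 without WT replicate 2. These means were low on the scale, below the medians of all tested probe sets, which were 7.95 to 8.05 over the arrays. Hoxc5 differed by 0.24 (0.08 to 0.40), Hoxb3 by 0.05 and Hoxa4 by 0.09. Cerebellar markers differed by a median of 0.30 with WT replicate 2 and -0.21 without it, where 10 of 11 were lower at an unadjusted p under 0.05 and 3.95% of all probe sets were; Car8 differed by 0.51 (-0.67 to 1.68) and by -0.14 without that array, and Calb1 by 0.09 and -0.11. Whether these marker differences reflect a difference in tissue, and their part in the levels of the 9 genes, was not tested. Without WT replicate 2 the 9 genes had a median difference of -0.023, 0 of 9 passed by limma, where 0.038% of all probe sets did, and 0 of 9 had an unadjusted p under 0.05, where 11.0% did.

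Neurons, astrocytes and microglia had medians of -0.0013, 0.018 and -0.00046 over 12, 12 and 11 measured genes, and 0 passed by limma, adjusted or unadjusted. Without WT replicate 2 the medians were 0.00025, -0.0011 and 0.021. There 9 of 11 microglia genes were higher in Tg and 8 of 12 astrocyte genes lower, where 46.7% of all genes were lower. At an unadjusted p under 0.05 by limma 1 neuron gene was lower and 1 microglia gene higher. Of all probe sets 3.95% were lower and 7.07% higher at that threshold, and 0 of these marker genes passed after adjustment. Uchl1 differed by -0.11, Aldoc by 0.05 and C1qb by 0.08, which had the lowest p of their lists, each with a limma adjusted p of 1.0. The brightest others, Snap25 (0.01), Syt1 (0.00), Glul (-0.02) and Csf1r (0.00), lay close to 0.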

How the data were processed

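Per the labels' protocols, RNA of 10 whole brains was extracted with TRIzol and RNeasy, biotinylated and hybridised to single-channel Affymetrix arrays. The deposited values are log2 expression values (3.28 to 14.7 over 35556 rows), for which the submitters' processing notes name Affymetrix Expression Console 1.1.2; neither its settings nor a genome build is stated there. They were used as deposited. The 6612 rows with identifiers below the range of gene-level probe sets, of which the platform annotation names 0, were taken as controls and left out. Of the 28944 remaining probe sets 21789 had 1 gene, 1621 several and 5534 none. Symbols were updated through Entrez identifiers (21698 matched, 91 kept).

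Tg and WT were compared in limma 3.58.1 (R 4.3.3; lmFit, eBayes, no covariates), with Benjamini-Hochberg adjustment over all 28944 probe sets; the step was tested on simulated data. The exact permutation tests were two-sided over 252 assignments, and those of member pairs used 100000 resamples. The members and lists were chosen with earlier results of these data known, so lists are described by counts and medians. Of 172 genes in 11 further lists 160 were measured; the others were not analysed here. Named are all members, the lowest p and the 2 brightest of each list, and the 8 genes most like the member mean; other names were chosen after their values were seen. Alternatives were quantile normalization, median centring, the upper 60% of probe sets, a variance trend, array weights, a replicate block, gene means and leaving out arrays. Precision is set by how many arrays there are. The p-values measure the spread between mice; shared litters or processing days are not stated.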

Additional observations from a re-analysis of the deposited data

Results flagged for a closer look

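Opalin on WT replicate 5 read 8.92 log2 units, farther below the other 4 WT arrays (9.47 to 9.54) than the spread of that group allows by Dixon's criterion for 5 samples. It was the 1 array set apart among the 18 groups examined, 9 genes in 2 genotypes; by chance about 1 in 20 groups is. In Tg brain the low arrays were 2 of 5, which that criterion, made for a single outlying value, does not mark. Hspa5 read 12 log2 units on the same WT array, against 11.31 to 11.36 on the other 4. It had been picked because it ran against Opalin over these same arrays, so its value is no separate evidence.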

How the results depend on the processing

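With each of the 18 alternatives 0 of the 9 genes passed, and the lowest adjusted p of any of them was 0.601. The count of probe sets past the threshold, 10 in the main comparison, was 9 to 11 with single arrays left out and 6 without Tg replicates 4 and 5 and WT replicate 5 together, an alternative added after seeing the data that leaves 3 against 4 arrays. With single arrays left out the median difference of the 9 genes ranged from -0.033 to -0.0068. Their median pairwise correlation, 0.04 over all 36 pairs and 10 arrays, then ranged from -0.03 to 0.11. Differences so near 0 changed sign easily. Cldn11 was 0.0022 after quantile normalization and 0.032 with array weights, where Ermn was -0.022. Without the 3 arrays Mbp was 0.0013, Mobp 0.0037 and Mal -0.043. With single arrays left out Mog ranged from -0.0019 to 0.033, Mal from -0.032 to 0.028, Mobp from -0.054 to 0.010, Cldn11 from -0.046 to 0.050 and Ermn from -0.060 to 0.11. The cause was not tested. Each gene had 1 probe set, so averaging probe sets left the 9 differences as they were. With the replicate number as a block 0 of the 9 genes and 11 probe sets passed. Same-numbered arrays had correlations of their deviations from -0.47 to 0.45, and 4 of 10 correlated best with their own number. They also carry neighbouring label numbers, such as 1388 and 1389 for replicate 1 and 1399 and 1398 for replicate 5. So few correlations cannot decide whether the replicate numbers mark a pairing.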
